A study of Ailuropoda melanoleuca with 25 samples.

Results

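The genes described here belong to families whose names are common among cilium and axoneme genes (DNAH, DNAI, DNAL, DNAAF, CFAP, TEKT, RSPH, SPAG, ROPN, DRC, CCDC, IFT, HYDIN, WDR, TTC, TTLL, ARMC, EFHC, SPEF and LRRC). A gene was a member if its name began with 1 of these stems in the study's list of genes specific to a tissue, and if its identifier was in the deposited expression table. Of the 25376 genes in the table, 35 were members. The study's list named 14 of them for heart, 3 for liver, 2 for spleen, 12 for lung and 7 for kidney. DRC1 was listed for heart and spleen, CFAP65 for heart and lung, and CCDC198 for liver and kidney. Because the list was made from these same libraries, a difference between a listed tissue and any other tissue is given below as a description, without a test.

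RNA of 5 tissues (lung, kidney, spleen, liver and heart) of 5 dead giant pandas was sequenced as 25 libraries, 5 per tissue. Panda 1 was an aged female of 27 years with ovarian cancer as the recorded cause of death, and panda 2 was an adult female of 9 years whose recorded cause of death reads "ileac pssion". Pandas 3 and 4 were females and panda 5 a male, all of 0.5 years and all recorded with a coronavirus infection. Libraries are named by tissue and panda, so that lung 3 is the lung library of panda 3. Age, cause of death and year of sampling cannot be told apart.

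Motile cilia beat through the axoneme, a ring of doublet microtubules around a central pair. Dynein arms slide the doublets past each other, radial spokes pass signals from the central pair to the dyneins, and the nexin-dynein regulatory complex links neighbouring doublets. In the lung such cilia cover the multiciliated cells of the airway lining, where their beat moves mucus out of the airways. The coiled-coil (CCDC), leucine-rich repeat (LRRC), WD repeat (WDR) and tetratricopeptide repeat (TTC) stems name a protein fold and not a function, so they also bring in genes of other cells.

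By textbook role, 14 of the 35 genes were axoneme genes, 4 were genes of heart muscle, 3 were genes of kidney tubule or other epithelium, 2 encoded secreted or matrix proteins, 1 was a synapse gene, and 11 had no role that could be given with certainty. All 35 exceeded a mean of 1 FPKM in some tissue. FPKM is the number of fragments scaled by gene length and library depth, so levels of different genes can be compared. The mean was above 1 FPKM for 28 genes in lung, 17 in kidney, 13 in heart, 10 in spleen and 7 in liver. Of all 18701 genes above 1 FPKM in any tissue, the counts were 15858, 15173, 12657, 15346 and 12355 in the same order. The highest tissue mean was in lung for 14 of 35 genes, beside 30.1% of the 18701 genes above 1 FPKM in any tissue. These 14 genes were the 12 listed for lung, DRC1 and TTC22.

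Being listed for a tissue did not always mean being high there. Of 38 pairs of a gene and its listed tissue, 29 had their highest mean in that tissue and 7 had their lowest. The 7 were CFAP65, CCDC152, TTC22 and TTC39C in heart, ARMC3 and CCDC80 in liver, and DRC1 in spleen. CFAP65 had no read in any of the 5 heart libraries, and ARMC3 had none in any of the 5 liver libraries. All 12 genes listed for lung and all 7 listed for kidney were highest in the tissue that listed them.

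**Figure D1:**
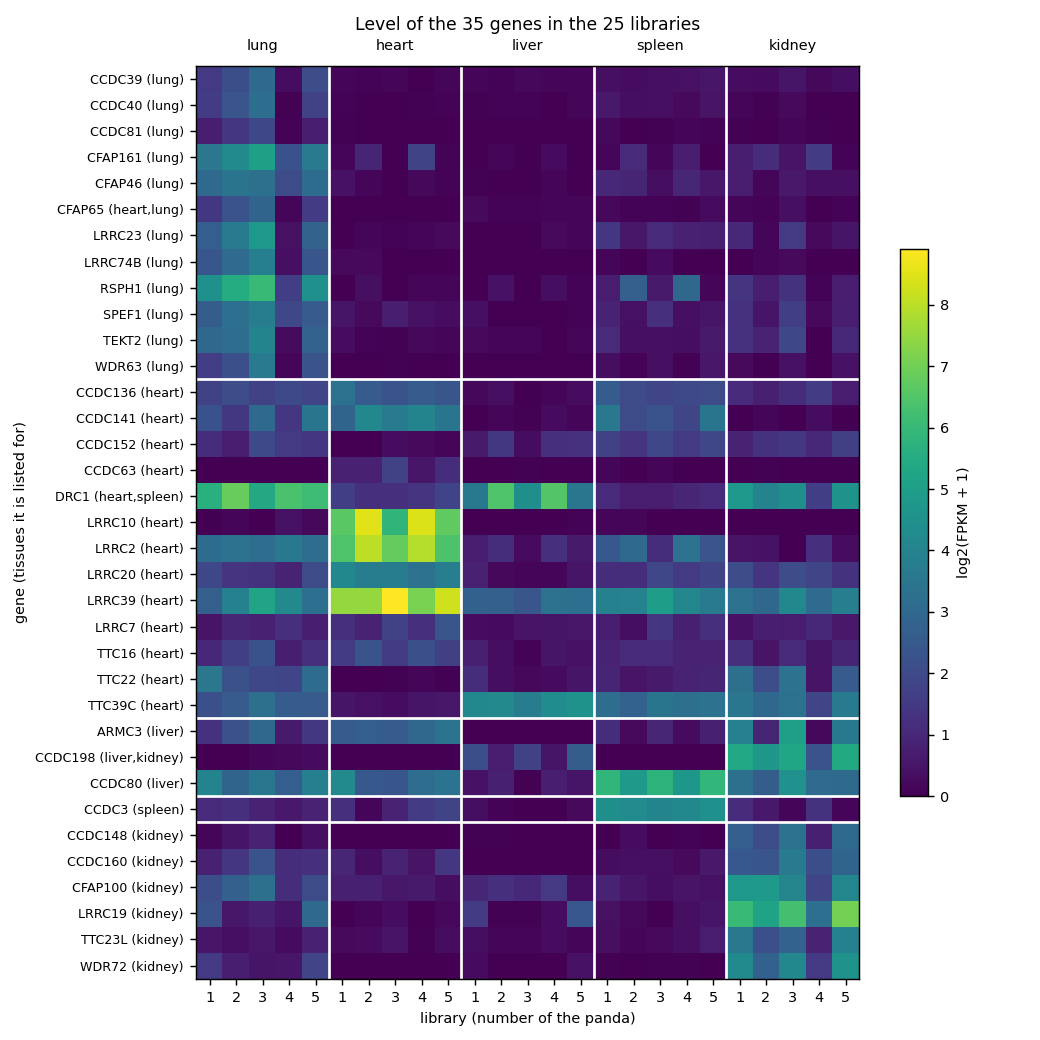
Level of the 35 genes, in rows and grouped by the tissue they were listed for, in the 25 libraries, in columns; colour is log2(FPKM + 1). The 12 genes listed for lung are visible in lung, where library 4 is dark for most of them, and DRC1 is high in lung and liver although it was listed for heart and spleen.

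The depth, recovered from the smallest steps of the FPKM values, was 13149560 to 21383348 fragments per library and 13149560 to 16215805 in lung. The lung libraries carried the surfactant gene SFTPC, a marker of alveolar type 2 cells, at 11570 to 40781 FPKM. In kidney, library 4 had the lowest level of 46.9% of all expressed genes. In bulk tissue, fewer cells of a type and less RNA per cell cannot be told apart.

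The 12 genes listed for lung held 10 axoneme genes. Their lung means ran from 1.17 FPKM for CCDC81 to 30.8 for RSPH1, with a median of 6.40. RSPH1 (ENSAMEG00000001940), which encodes a protein of the radial spoke head, had 21.1, 45, 64.5, 2.17 and 21.3 FPKM in lung 1 to 5. LRRC23 (ENSAMEG00000013885), another radial spoke protein, had 5.33, 11.8, 26.1, 0.333 and 6.21 FPKM. For both spoke genes lung 3 was highest and lung 4 lowest, with a mean of 30.8 ± 24.2 FPKM for RSPH1 and 9.96 ± 9.89 for LRRC23 (SD, n = 5).

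TEKT2 (ENSAMEG00000000473) encodes tektin 2, a filament protein of the doublet microtubules. It had 6.96, 8.12, 15.2, 0.212 and 5.92 FPKM in lung 1 to 5. CFAP161 (ENSAMEG00000006146), a protein inside the doublets, had 10.5, 18.1, 32.4, 3.74 and 11.6 FPKM. Here too lung 3 was highest and lung 4 lowest, and lung 4 was 8.66 times below lung 3 for CFAP161 and 71.7 times below it for TEKT2.

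Of the central pair genes, CFAP46 (ENSAMEG00000010522) had 7.27, 9.89, 8.81, 3.13 and 7.79 FPKM. SPEF1 (ENSAMEG00000010788), which binds and bundles microtubules, had 5.12, 8.56, 12.9, 2.79 and 4.89 FPKM. These were the genes with the smallest spread among the lung libraries: lung 3 was 2.82 times lung 4 for CFAP46 and 4.61 times for SPEF1. CFAP46 was also the only 1 of the 12 that was not highest in lung 3.

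CCDC39 (ENSAMEG00000011032) and CCDC40 (ENSAMEG00000015141) together form the ruler that sets the repeat length along the doublets, and loss of either causes primary ciliary dyskinesia in people. CCDC39 had 1.83, 3.42, 7.36, 0.224 and 3.27 FPKM in lung 1 to 5. CCDC40 had 1.94, 4.10, 8.25, 0.0399 and 2.38 FPKM. The partners had close means, 3.22 ± 2.65 FPKM for CCDC39 and 3.34 ± 3.10 for CCDC40 (SD, n = 5), and the same order of libraries, from lung 3 over lung 2, 5 and 1 down to lung 4.

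WDR63 (ENSAMEG00000017265), an intermediate chain of an inner dynein arm, had 2.07, 3.54, 12.1, 0.121 and 3.86 FPKM. CFAP65 (ENSAMEG00000002575), known for its part in the sperm flagellum, had 1.73, 3.82, 6.30, 0.076 and 2.02 FPKM. The highest value in the 20 libraries of the other tissues was 0.486 FPKM for WDR63 and 0.289 for CFAP65. The remaining 2 genes have no certain role. CCDC81 (ENSAMEG00000006169) had 0.676, 1.67, 2.78, 0.0556 and 0.694 FPKM, and LRRC74B (ENSAMEG00000011038) had 4.24, 7.59, 13.4, 0.277 and 4.18 FPKM. Both followed the order of the axoneme genes, with lung 3 highest and lung 4 lowest.

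**Figure D2:**
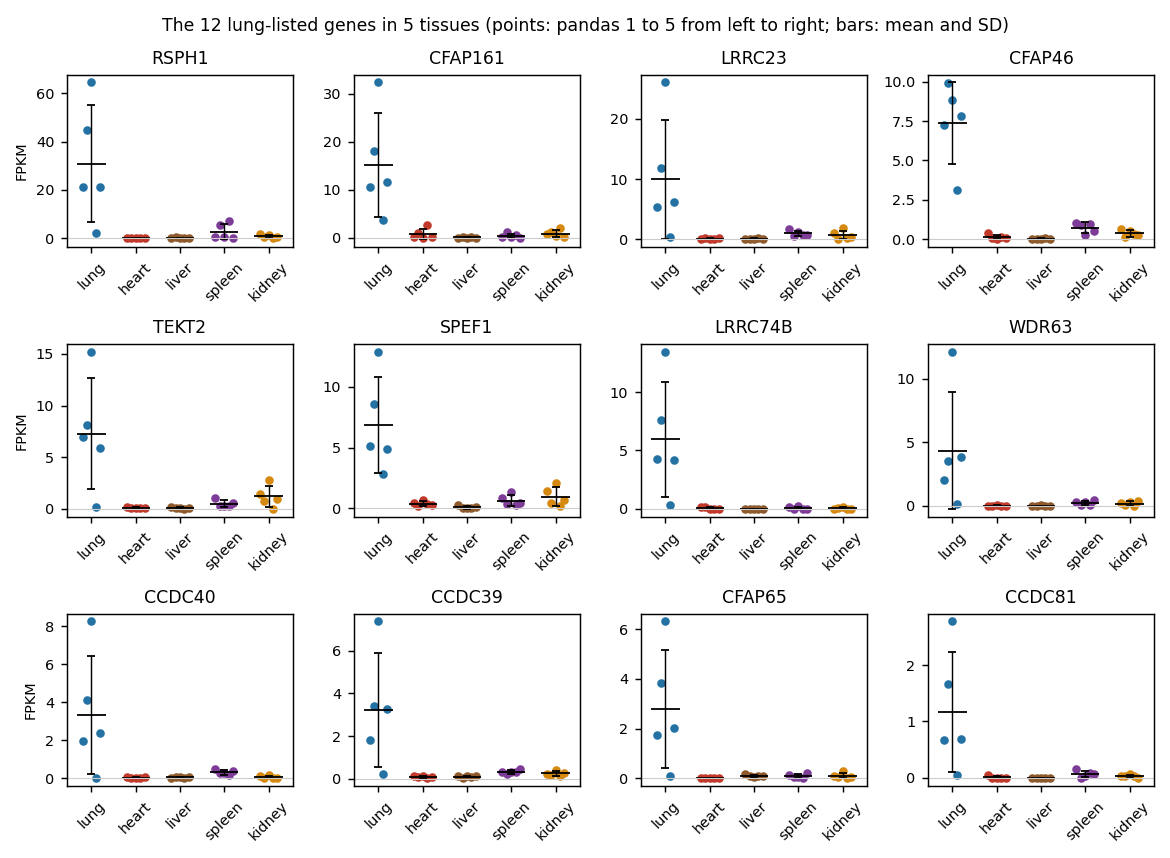
FPKM of the 12 genes listed for lung in each tissue, 1 panel per gene on its own linear scale; points are libraries of pandas 1 to 5 from left to right, and bars are the mean and SD (n = 5). Lung stands above the other tissues in every panel, and the point of lung 4 lies below the highest library of another tissue for 8 of the 12 genes.

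Outside lung these genes had low levels. The median of their 12 means was 0.0888 FPKM in heart, 0.0582 in liver, 0.349 in spleen and 0.313 in kidney. Means above 1 FPKM outside lung were only those of TEKT2 in kidney (1.21 ± 1.03) and of RSPH1 in spleen (2.76 ± 3.24; SD, n = 5). CFAP65 had no read in heart, and CCDC81 and LRRC74B had none in liver. The lung mean was 6.01 to 89.0 times the highest mean elsewhere, with a median of 10.8 times. LRRC74B had the highest of these ratios and TEKT2 the lowest. The other 4 lung libraries were above all 20 libraries of the other tissues for all 12 genes, while lung 4 was above them only for CFAP161, CFAP46, SPEF1 and LRRC74B. These values are the contrast on which the genes were listed, so they describe the list and support nothing further.

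The 12 genes moved together among the lung libraries. Summed over the 12, the level was 68.8, 126, 210, 13.2 and 74.1 FPKM in lung 1 to 5, from 1799, 2572, 4452, 335 and 2009 reads. Lung 4 was lowest for 12 of the 12 genes, and lung 3 was highest for 11 of the 12. Lung 3 was highest and lung 4 lowest for 11 of 12, beside 9.18% of the 15858 genes expressed in lung. Lung 3 was 2.82 to 207 times lung 4, with a median ratio of 49.2. With TMM factors the ratios were 2.28 to 167 and with quantile normalization 2.01 to 126, and the count was again 11. Without lung 4 the lung mean of RSPH1 was 38.0 ± 20.9 FPKM and that of TEKT2 9.05 ± 4.19 (SD, n = 4).

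Most genes known from airway ciliated cells that are no members showed the same order. Of 24 such genes other than regulators, all of them with an identifier and listed for lung, 23 were highest in lung 3 and 24 lowest in lung 4. Over all 15858 genes expressed in lung, the shares were 29.7% and 24.7%. The 24 genes could be found only through the study's list, so they were chosen with these libraries as the members were. Their sum was 179, 198, 455, 15.6 and 201 FPKM in lung 1 to 5, and C11orf88 and EFCAB1 had no read in lung 4. Of the 4 regulators with an identifier, FOXJ1 and CCNO had the same order, TP73 was lowest in lung 5 (4.55 FPKM, with 4.64 in lung 4) and had its highest mean in spleen (30.5, with 7.27 in lung), and FOXN4 was highest in lung 5. The sum over the 24 genes was 1.12 to 17.5 FPKM in the libraries of the other tissues. Alveolar cells did not follow: 7 alveolar type 2 genes summed to 49387, 15660, 14316, 21483 and 46591 FPKM, and 4 alveolar type 1 genes to 2700, 3051, 1628, 3149 and 2821 FPKM. For both alveolar lists lung 3 was lowest, and lung 4 was not. The 4 airway secretory genes summed to 224, 149, 268, 39.7 and 415 FPKM. Of these 4 genes, SCGB3A1 and TSPAN1 were lowest in lung 4, the secretoglobin SCGB3A1 with 1.34 FPKM against 69.2 to 280 in the other lung libraries, while AGR2 was lowest in lung 2 (24.9, with 25.4 in lung 4) and TFF1 in lung 3 (0.285, with 4.03 in lung 4). The part that the share of airway in each lung sample had in these differences was not tested.

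**Figure D3:**
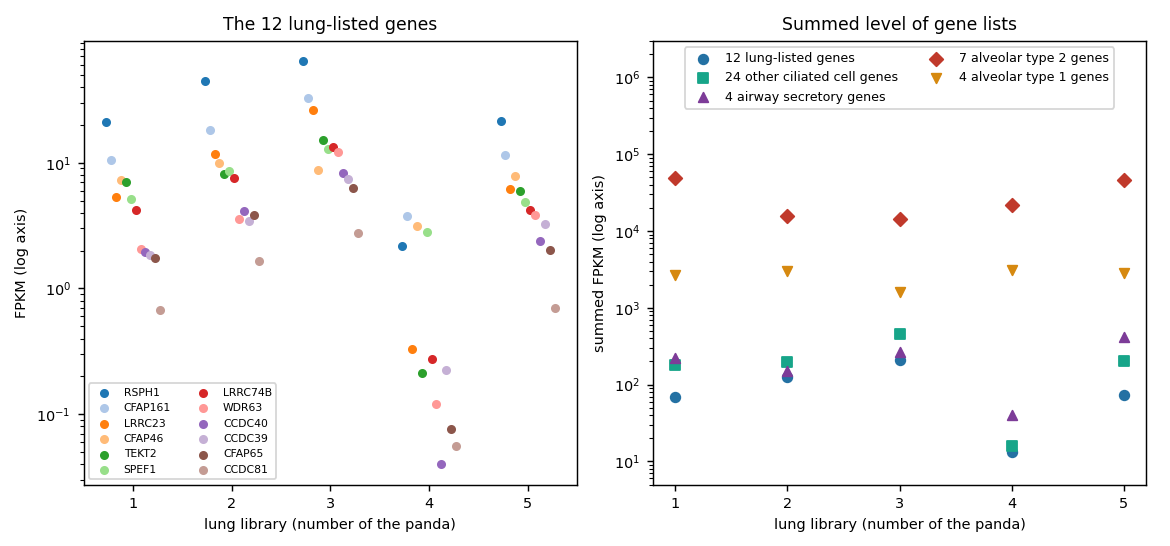
Left: FPKM of the 12 genes listed for lung in lung 1 to 5 on a log axis, each gene 1 colour. Right: summed FPKM of 5 gene lists in the same libraries on a log axis. The 12 genes and the 24 other ciliated cell genes drop in lung 4, to 13.2 and 15.6 FPKM, while the alveolar sums stay within 14316 to 49387 and 1628 to 3149 FPKM.

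In kidney the same pandas gave part of the same order. Library 3 was highest and library 4 lowest for 5 of the 12 genes (CFAP65, TEKT2, SPEF1, CCDC39 and CCDC40), beside 15.3% of the 15173 genes expressed in kidney. At the levels of kidney, where the 12 genes summed to 7.46, 3.73, 10.6, 2.84 and 3.75 FPKM, a gene rested on 3 to 124 reads over the 5 libraries. In heart, liver and spleen at most 1 of the 12 genes had this order.

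The 4 axoneme genes that were not listed for lung differed from the 12 and from each other. DRC1 (ENSAMEG00000002238), a subunit of the nexin-dynein regulatory complex, was the most abundant axoneme member in lung. It had 49.9, 114, 41.1, 80.5 and 68.9 FPKM in lung 1 to 5, so that lung 4 was not low and lung 3 was lowest. In liver it had 11.1, 86.7, 21.0, 91.8 and 10.4 FPKM, with pandas 2 and 4 far above the others, and in kidney 25.9, 15.003, 20.7, 2.16 and 22.3 FPKM. Its means were 1.76 ± 0.542 FPKM in heart and 0.872 ± 0.252 in spleen (SD, n = 5), the lowest of the 5 tissues, and those are the tissues it was listed for.

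CFAP100 (ENSAMEG00000006408), a protein that helps anchor an inner dynein arm, was highest in kidney, with 25.7, 27.0, 15.7, 2.67 and 16.1 FPKM. Its lung values were 3.33, 5.64, 8.76, 1.26 and 3.08 FPKM, which again put lung 3 highest and lung 4 lowest. ARMC3 (ENSAMEG00000006332), an armadillo repeat protein studied in sperm, followed the same order in lung with 1.40, 3.58, 6.96, 0.572 and 1.75 FPKM. In kidney ARMC3 had 13.9, 0.876, 31.5, 0.140 and 11.2 FPKM, the widest spread of any member there in relative terms among those above 5 FPKM, and in heart it was even at 4.99, 5.34, 4.88, 6.87 and 9.47 FPKM. CCDC63 (ENSAMEG00000013845), related to the proteins that dock outer dynein arms, was almost limited to heart, with 0.763, 0.770, 2.37, 0.459 and 1.27 FPKM there and no read in any lung library (its locus overlaps that of the heart muscle gene MYL2). Among the 19 genes of other or uncertain role, TTC16 and CCDC148 also had lung 3 highest and lung 4 lowest.

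Lung was then compared with each other tissue for the genes that the study's list named for neither tissue. Their choice had not used that contrast itself, but it had used the same libraries in comparisons with the listed tissue. The members were thus chosen for differing between tissues. The shares over all genes given below were not chosen in this way and are only a rough measure beside them. The test was limma on log2(FPKM + 1) over all genes, and a DEG needed a log2 difference beyond 2 in size together with an adjusted p (Benjamini-Hochberg) under 0.05. Against kidney, 16 members were not listed for either tissue and 12 were tested, the others having means of at most 1 FPKM in both. For a gene that passed this filter through 1 tissue only, the filter fixed the direction. Its values are then a description. Of these, 3 were DEGs higher in lung and 0 were lower, beside 7.36% and 4.88% of the 17177 genes tested. DRC1 was higher in lung in 5 of 5 pandas, with a log2 difference of 2.20 ± 0.52 (SE) and an adjusted p of 0.00408. The call depended on kidney 4, the library with the lowest DRC1 level in kidney, since without it the log2 difference was 1.65. It also depended on the scaling. With all libraries kept, the difference was 1.69 with TMM factors and 1.88 with quantile normalization, both below 2.

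LRRC2 and CCDC141, genes active in heart muscle, were the other DEGs against kidney. Both passed the filter only through lung, with kidney means of 0.469 and 0.0615 FPKM, which fixed the direction. LRRC2 had 7.92, 9.63, 8.04, 11.3 and 8.19 FPKM in lung and 0.386, 0.363, 0, 1.38 and 0.213 in kidney, without overlap, and its log2 difference was 2.82 ± 0.28 (SE; limma adjusted p 6.39e-06). CCDC141 had 3.77, 1.74, 7.36, 1.64 and 10.015 FPKM in lung and at most 0.220 in kidney. Its log2 difference was 2.24 ± 0.38 (SE; limma adjusted p 0.000416), and without lung 5 it was 1.96, below the threshold of 2. CFAP100 could not enter, since it was listed for kidney, and ARMC3 differed from kidney by -1.01 ± 0.81 (SE; limma adjusted p 0.320).

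Against liver, 20 members were not listed and 14 were tested, of which 3 were DEGs higher in lung and 0 lower, beside 25.7% and 3.34% of 16558 genes, so that 3 of 14 was not above the share among all genes. They were LRRC2 (2.52 ± 0.25), CCDC141 (2.21 ± 0.37) and TTC22 (2.04 ± 0.35; log2 difference and SE), each higher in lung in 5 of 5 pandas. Their liver means were 0.782, 0.0830 and 0.455 FPKM. All 3 thus passed the filter only through lung, which fixed the direction, and their values are a description. Without lung 5, CCDC141 fell to 1.93 and TTC22 to 1.89. TTC22 was also below 2 without lung 1 (1.80), liver 3 (1.97) or liver 4 (1.99). At an adjusted p below 0.05 and any size, 9 members were higher and 1 lower in lung, beside 66.7% and 7.46% of all genes. Of the 9, only CFAP100 had a liver mean above 1 FPKM (1.05), and the others passed the filter only through lung. The lower gene was TTC39C, with 5.42 ± 1.96 FPKM in lung and 17.8 ± 3.98 in liver. DRC1 differed by 1.17 ± 0.62 (SE; limma adjusted p 0.103, or 0.0331 with the panda as a block) and was higher in lung in 4 of 5 pandas, but with TMM factors the difference was -0.48.

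Against spleen, 21 members were not listed and 15 were tested, and 0 were DEGs higher in lung and 1 lower, beside 4.03% and 2.84% of 16908 genes. The lower gene was CCDC80, which encodes a secreted matrix protein. It had 15.4, 6.27, 10.4, 5.33 and 13.6 FPKM in lung and 56.9, 26.7, 53.7, 25.3 and 58.5 in spleen, with a log2 difference of -2.02 ± 0.34 (SE; limma adjusted p 0.000742). The difference fell short of 2 in size without lung 2 (-1.89), lung 4 (-1.84), spleen 1 (-1.91), spleen 3 (-1.93) or spleen 5 (-1.90). At an unadjusted p below 0.05, 7 members were higher and 2 lower in lung, beside 20.4% and 18.4% of all genes, and limma-voom on the recovered reads called 4 of the 15 higher, beside 8.14% of all genes. Of the 7 higher genes, only LRRC2 had a spleen mean above 1 FPKM (5.30). The others, CFAP100 and ARMC3 among them, passed the filter only through lung, which fixed the direction, so their values are a description. CFAP100 was higher in lung by 1.75 ± 0.33 (SE; limma adjusted p 0.00182), in 5 of 5 pandas, and reached 2.02 without lung 4. ARMC3 differed by 1.03 ± 0.39 (SE; limma adjusted p 0.0670, or 0.0333 with the panda as a block) and was higher in lung in 5 of 5 pandas.

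Against heart, 10 members were not listed and 7 were tested with limma, and 0 were DEGs in either direction, beside 19.5% higher and 3.40% lower of 16518 genes. At an unadjusted p below 0.05, 3 were higher and 1 was lower in lung, beside 72.4% and 9.62% of all genes, and limma-voom called 3 higher, beside 36.7%. CFAP100 was higher in lung by 1.63 ± 0.33 (SE; limma adjusted p 0.000579) in 5 of 5 pandas. ARMC3 was lower in lung by a log2 difference of -1.12 ± 0.38 (SE; limma adjusted p 0.0162) and higher in lung in 1 of 5 pandas. The 3 higher genes were CFAP100 and the kidney-listed LRRC19 and WDR72. Their heart means were 0.561, 0.0977 and 0.00265 FPKM. All 3 thus passed the filter only through lung, which fixed the direction, and their values are a description.

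The median log2 difference of the tested members was 0.28 against kidney, 0.44 against spleen, 1.16 against liver and 0.58 against heart. Over all genes tested it was 0.43, -0.03, 1.28 and 1.17. With quantile normalization the medians of all genes were 0.10, -0.06, 0.17 and 0.11 in the same order, so a difference from liver or heart of about 1 on this scale was the typical difference. The 4 comparisons share the lung libraries. With TMM factors or quantile normalization, LRRC2 was the only DEG higher than in kidney and no member was a DEG higher than in liver, while TTC39C was a DEG lower than in liver (-3.08 and -2.86) and ARMC3 a DEG lower than in heart (-2.13 and -2.28).

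**Figure D4:**
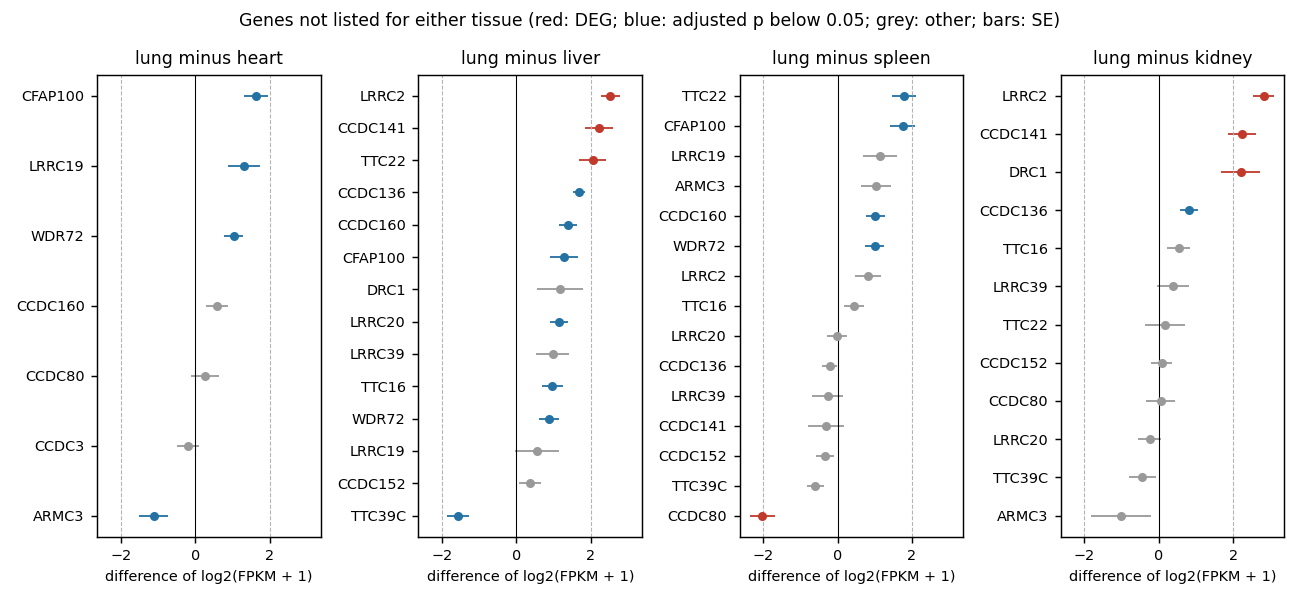
Difference of log2(FPKM + 1) between lung and each other tissue (points) with its SE (bars) for the members listed for neither tissue; red marks a DEG, blue an adjusted p below 0.05 with a smaller difference, and grey the rest, and dashed lines stand at -2 and 2. Red points are 3 against kidney, 3 against liver and 1, CCDC80, against spleen. The red points of LRRC2, CCDC141 and TTC22 belong to genes that passed the filter of 1 FPKM only through lung.

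The genes listed for lung were tested in the 6 comparisons that leave lung out. Only TEKT2 and RSPH1 passed the filter of 1 FPKM, in 6 tests, of which limma called 0 DEGs. At an unadjusted p below 0.05 there were 4, and limma-voom called 2, with no share over all genes at either cut to set beside them. In these 4 tests TEKT2 passed the filter only through kidney and RSPH1 only through spleen, which fixed the direction, so the values that follow are a description. The share of DEGs among all genes in the comparisons concerned was 14.3% for kidney against spleen, 14% for kidney against liver, 15.3% for kidney against heart, 29.9% for spleen against liver and 23.3% for spleen against heart. TEKT2 was higher in kidney than in liver by 0.89 ± 0.30 and than in heart by 0.87 ± 0.30 (log2 difference and SE), in 4 of 5 pandas each. RSPH1 was higher in spleen than in liver by 1.27 ± 0.50 and than in heart by 1.30 ± 0.49, in 5 of 5 pandas each.

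The spleen level of RSPH1 came from pandas 2 and 4. Its values in spleen 1 to 5 were 0.618, 5.51, 0.545, 7.01 and 0.122 FPKM, and spleen 4 was above the lung library of the same panda (2.17). Pandas 2 and 4 were above pandas 1, 3 and 5 for 2 of the 12 genes, RSPH1 and CFAP161, in each of heart, liver and spleen. This is near the share among all genes, 14.1% in heart, 24% in liver and 14.1% in spleen, and in heart 4 RSPH1 rested on 2 reads and in liver 2 CFAP161 on 2 reads, below the floor of 3. CFAP161 reached 2.57 FPKM in heart 4, its highest value outside lung, beside 0 to 0.891 in the other heart libraries. In spleen the 7 alveolar type 2 genes summed to 44.3, 52.4, 69.3, 184 and 42.8 FPKM, also highest in spleen 4, and their part in the RSPH1 value was not tested.

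In heart, LRRC39, LRRC10 and LRRC2 had the highest levels of any member. LRRC39, a protein of the sarcomere M-band, had 179, 180, 482, 140 and 312 FPKM in heart 1 to 5, and means of 6.67 to 17.5 FPKM elsewhere. LRRC10, a cardiac regulatory protein, had 97.3, 364, 56.4, 351 and 105 FPKM in heart and at most 0.326 in any other library. LRRC2 had 88.1, 259, 110, 241 and 85.9 FPKM in heart. Pandas 2 and 4 were highest for LRRC10 and LRRC2 and panda 3 for LRRC39, so the 3 genes did not share an order. CCDC141 had a heart mean of 12.1 ± 4.22 FPKM (SD, n = 5).

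Of the genes known from kidney tubule or other epithelium, LRRC19 had 63.7, 33.9, 77.4, 8.61 and 130 FPKM in kidney. WDR72, whose loss impairs enamel formation and urinary acidification, had 18.0, 5.81, 16.9, 1.83 and 22.1 FPKM, and CCDC198 had 39.5, 25.3, 37.0, 3.87 and 41.5 FPKM. Kidney 4 was lowest and kidney 5 highest for all 3. In lung these 3 genes had means of 2.53, 1.21 and 0.0879 FPKM.

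Both secreted proteins were highest in spleen, CCDC80 with a mean of 44.2 ± 16.7 FPKM and CCDC3 with 18.5 ± 2.51 (SD, n = 5). In lung they had 10.2 and 0.923 FPKM. The synapse scaffold gene LRRC7 had its highest mean in heart, at 1.99 ± 1.28 FPKM, and 0.823 in lung.

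The genes of uncertain role spread over all tissues. LRRC20 (12.9 FPKM), CCDC136 (5.5) and TTC16 (2.71) had their highest means in heart, CCDC160 (5.98), CCDC148 (5.13) and TTC23L (7.06) in kidney, TTC39C (17.8) in liver and CCDC152 (2.26) in spleen. Their lung means were 1.96, 2.72, 1.80, 1.77, 0.320, 0.448, 5.42 and 1.65 FPKM in that order. TTC22 had nearly equal means in lung (5.49 ± 3.51) and kidney (5.37 ± 3.83; SD, n = 5), where it differed by 0.17 ± 0.54 (SE; limma adjusted p 0.807).

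Age was compared within lung, with the 3 young pandas (0.5 years) against the 2 older ones (9 and 27 years). limma called 0 of 16247 genes (0%), with 186 at an unadjusted p below 0.05, and limma-voom called 0. Of the members 29 were tested, 0 at an unadjusted p below 0.05, and the lowest unadjusted p was 0.105. For the 12 genes listed for lung, the log2 difference of young minus older pandas ran from -0.93 to 0.15 with SEs of 0.47 to 1.15. Both extreme libraries, lung 3 and lung 4, were from young pandas.

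Other axoneme genes could be followed here only where a table paired their name with an identifier. This was so for 1 of 35 other dynein arm genes (EFCAB1), 1 of 21 dynein assembly genes (ZMYND10), 3 of 43 radial spoke, central pair and nexin link genes (MAATS1, IQCA1 and TCTE1), 2 of 57 microtubule inner and other axoneme genes (FAM183A and RIBC2) and 0 of 35 intraflagellar transport genes. All but MAATS1 were listed for lung, where EFCAB1 had a mean of 3.05 FPKM, ZMYND10 10.011, IQCA1 2.30, TCTE1 4.51, FAM183A 21.1 and RIBC2 5.54. MAATS1, also named CFAP91, which was listed for heart, had 1.79 FPKM in lung and 1.96 in liver. In its 3 tests limma called 0 DEGs, with 0 at an unadjusted p below 0.05 and 0 by limma-voom.

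FOXJ1, the transcription factor that switches on the genes of motile cilia, had 61.4, 102, 107, 1.33 and 21.3 FPKM in lung 1 to 5. As for 11 of the 12 genes, lung 3 was highest and lung 4 lowest. In kidney it had 82.7, 23.3, 24, 1.77 and 33.5 FPKM, and it was near 0 in heart and spleen. FOXJ1 was listed for liver, where its mean was 1.47 FPKM, so lung was not tested against liver. Lung exceeded spleen by a log2 difference of 4.92 ± 0.85 (SE; limma adjusted p 0.00095) and heart by 5.01 ± 0.84 (adjusted p 0.000149). With means of 0.0775 FPKM in spleen and 0.00912 in heart, FOXJ1 passed the filter there only through lung. The filter thus fixed the direction, and these 2 differences are a description. Against kidney the difference was 0.58 ± 1.03 (SE; adjusted p 0.665), with lung higher in 2 of 5 pandas, and without kidney 4 it was -0.16. The kidney mean of FOXJ1 was 33.0 FPKM, while the 12 genes listed for lung had kidney means of 0.0308 to 1.21 FPKM.

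Some members overlap another protein-coding gene. In the RefSeq annotation of assembly ASM200744v3, which is not the assembly of the deposited table, 32 of the 35 symbols could be placed, and overlaps with a neighbour included CCDC63 with MYL2, CCDC152 with SELENOP, LRRC39 with TRMT13 and LRRC19 with IFT74. The library kit named by the study does not mark strand, so reads of such a member and of its neighbour cannot be told apart where they overlap. MYL2 encodes a light chain of heart muscle myosin, and CCDC63 had nearly all its reads in heart. Sequences of these genes were not used here.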

How the data were processed

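Total RNA of 25 tissue samples was sequenced by the authors as 150 bp paired-end reads from a NEBNext Ultra library kit. Per the study's methods, the authors used HISAT2 v2.0.4 to align filtered reads to the ailMel1 assembly, Cufflinks v2.1.1 to assemble further transcripts and HTSeq v0.9.1 to count reads per gene. The deposited values are FPKM per gene and library, as computed by the authors from these counts and the gene lengths, with no scaling between libraries stated. Most gene models are of coding length, and gene names came only from the study's list of tissue-specific genes, which named 1778 of its 2814 identifiers. No p-value or fold change of the study was used.

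Here, limma 3.58.1 (R 4.3.3) with a variance trend was fitted to log2(FPKM + 1) for each pair of tissues, 5 libraries against 5, over genes whose mean passed 1 FPKM in either tissue, with Benjamini-Hochberg adjustment over all genes tested. Differences are on that scale, which understates the change of genes with low levels. A gene listed for either tissue was described and not tested. The replicate number marks the same panda, which shares sex, age and cause of death across tissues in the labels. The deviations of same-numbered libraries from their tissue means correlated at 0.0600 to 0.521 (median 0.367). Replicates are different pandas, so p-values measure the spread between these animals.

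Whole reads were recovered from the FPKM steps for 24207 of 24207 genes above 0, within 0.05 reads, and gave each library's depth of 13149560 to 21383348 fragments and the reads for limma-voom. In simulated data for lung against heart, 15878 genes were tested. Of 199 genes changed 8-fold, 158 were called, 0 with the wrong sign, and 0 unchanged genes were called. Both groups were drawn around the lung means, with the same dispersion for all genes, no general shift between the tissues and no shared panda. The data differ in these points, so the simulated rates need not hold for them. Alternatives were a pseudocount of 0.1, no filter, a filter of 1 FPKM in every library of a group, quantile normalization, TMM factors, the panda as a block, 1 fit of all libraries, limma-voom, and leaving out each library. TMM and quantile values of the order of the lung libraries were added after seeing the data. Every member is named with tissue means, and values of single libraries are given for genes listed for lung, axoneme genes and FOXJ1. Genes named from other lists and the remaining single values were chosen after their values were seen. The members, lists and tests were chosen with earlier results of these data known.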

Additional observations from a re-analysis of the deposited data

Results flagged for a closer look

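Among 75 groups of 5 libraries in which a member had a mean above 1 FPKM, 4 held a library whose gap to its nearest neighbour was more than 0.71 of the whole range. About 1 in 20 groups would do so by chance. CCDC136, a gene of uncertain role, had 9.39 FPKM in heart 1, with the nearest heart library at 4.98, and 5.01 FPKM in spleen 1, with the nearest spleen library at 3.13. Both came from panda 1, the oldest animal. LRRC39 had 30.8 FPKM in spleen 3, with the nearest spleen library at 16, and panda 3 also had its highest heart level. CCDC80 had 21.5 FPKM in kidney 3, with the nearest kidney library at 8.86. None of the 12 genes listed for lung had a lung library apart by this measure.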

How the results depend on the processing

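The counts of DEGs among the members depended on the scale. Against liver, 3 members were higher in lung, and the count was 0 with TMM factors, 0 with quantile normalization, 9 with limma-voom and 8 with a pseudocount of 0.1; 0 were lower, and TMM factors and quantile normalization each gave 1, TTC39C. Against kidney, 3 were higher, and TMM factors and quantile normalization each left 1, LRRC2. Against spleen, 0 were higher, with 4 by limma-voom and 5 with a pseudocount of 0.1, and 1 was lower, with 0 under TMM factors. Against heart, 0 were higher, with 3 by limma-voom and 3 with a pseudocount of 0.1, and 0 were lower, with 1 each, ARMC3, under TMM factors and quantile normalization. In the 6 comparisons without lung, 0 became 2 by limma-voom and 4 with a pseudocount of 0.1. A smaller pseudocount weights low genes more by construction. By limma-voom, 8.14% of all genes were DEGs higher in lung than in spleen and 36.7% higher than in heart. For the other alternative counts no share over all genes is given here. They show the effect of the setting and are no result about the members. Leaving out 1 library gave 1 to 3 higher against liver, 2 to 3 against kidney, 0 to 1 higher and 0 to 1 lower against spleen, and 13 to 14 members with their highest mean in lung. DRC1 against liver turned to -0.48 with TMM factors, CFAP100 against liver to -0.13 with quantile normalization, and FOXJ1 against kidney to -0.16 without kidney 4; none of these differences was a DEG, and the cause was not tested.

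Of 602 values of 35 gene and tissue pairs under the alternatives, 540 kept direction and side of the threshold, 23 were no longer DEGs and 36 became DEGs. With the panda as a replicate block (a paired fit), the counts were again 3 higher against kidney, 3 higher against liver and 1 lower against spleen, none of the 35 pairs changed its call (at the adjusted p alone, ARMC3, LRRC2, LRRC19 and TTC39C against spleen and DRC1 and LRRC19 against liver passed), and all other counts kept within 1.5 times. At these depths a gene of 0.1 FPKM rests on a few reads, so levels near 0 are not resolved.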

Other observations

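The rule on names misses genes without a family name in the study's list. By their description there, 4 such genes, chosen after their values were seen, are axoneme genes. A dynein heavy chain 9 model (Novel04813) listed for lung had 1.04, 1.95, 1.66, 0.0281 and 0.935 FPKM in lung 1 to 5, and a radial spoke head 10 homolog (ENSAMEG00000009007), also listed for lung, had 0.965, 3.37, 3.91, 0.0261 and 1.64 FPKM. Lung 4 was lowest for both, and lung 3 was highest for the spoke gene only. A dynein heavy chain 5 gene (ENSAMEG00000002422), listed for spleen, had 1.22, 2.32, 3.96, 0.160 and 2.16 FPKM in lung and 2.87, 0.798, 5.66, 0.185 and 1.63 in kidney, with library 3 highest and library 4 lowest in both tissues. A separate model described as radial spoke head 1 (Novel04561), listed for heart, had its highest mean in heart at 1.85 ± 0.6 FPKM (SD, n = 5) and 0.421 ± 0.397 in lung, unlike RSPH1 itself.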
